A study of Macaca fascicularis with 3 samples.

Results

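The inflammatory monocytes of extraocular muscle (EOM), the muscle that moves the eye, were described across genes in whole cells of the cynomolgus macaque, Macaca fascicularis. The cells were selected on their own measured counts: a barcode was kept with at most 20% mitochondrial UMIs (molecular identifiers that let each captured RNA be counted once), at least 3 UMIs summed over FCN1, APOBEC3A, EREG, SERPINB2 and IL1B with at least 2 of these genes seen, and under 3 UMIs over C1QA, C1QB and C1QC. This chose 166 of the 7316 barcodes that passed the mitochondrial limit, 2.27% of them (Clopper-Pearson interval 1.94 to 2.64), out of 8979 barcodes deposited for the EOM cells and 37973 in all 3 libraries.

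Monocytes are made in the bone marrow, circulate in blood and enter tissue where they are called. Classical monocytes carry the lipopolysaccharide co-receptor CD14, store the calcium-binding alarmins S100A8 and S100A9, and release interleukin-1, chemokines and growth factors at sites of injury. Non-classical monocytes carry the Fc receptor FCGR3A and patrol vessel walls, while resident macrophages of muscle make complement C1q and scavenge debris. Of the genes that chose the cells, FCN1 encodes the lectin ficolin-1, APOBEC3A a cytidine deaminase, EREG the growth factor epiregulin, SERPINB2 an inhibitor of plasminogen activators and IL1B the cytokine interleukin-1 beta.

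The series holds 1 library in each of 3 groups: EOM cells, EOM nuclei and nuclei of the quadriceps femoris muscle (QFM), a thigh muscle. No genotype, treatment, age or number of animals is given for any group, and the labels name no injury or infection. All comparisons below were made between cells of the single EOM cell library, so no difference has a replicate check, no test was made and no p-value is given. Intervals are at 95% and cover counting error only. Levels are CPM, the counts of the summed cells scaled by their total, and a ratio is the log2 of 2 such levels, so 1 stands for a doubling.

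The EOM cell library held 12248405 UMIs with a median of 1141 per barcode. The inflammatory monocytes held 476928 UMIs, from 1080 to 7445 per cell with a median of 2804.5, and a median of 1142.5 genes. Their mitochondrial share had a median of 12.2% and ran from 6.18% to 19.5%. The other myeloid cells were 672 barcodes outside the rule that had at least 3 UMIs and 2 genes of a myeloid list and more UMIs of it than of any other lineage list. Their median was 1306 UMIs, under that of the monocytes, and a rule that needs 3 UMIs favours deep cells. Within them, 151 were C1Q macrophages (at least 3 C1Q UMIs, median 1821 UMIs) and 148 were FCGR3A monocytes (at least 2 FCGR3A UMIs, median 1708.5). A further 210 carried at least 3 UMIs and 2 genes of a neutrophil list and had a median of 627.5 UMIs and 2.24% mitochondrial UMIs. That class, called neutrophil list cells below, was added after the data were seen. The remaining 163 fell in none of these 3 classes.

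The 5 genes that chose the cells are given as a description. IL1B had 1277 UMIs in the monocytes, 2678 CPM, and was seen in 160 of 166 cells with a median of 6 and a maximum of 37 UMIs per cell. APOBEC3A had 650 UMIs in 111 cells, with 84 in the highest cell, and FCN1 297 UMIs in 94 cells. SERPINB2 had 138 UMIs in 40 cells and EREG 95 UMIs in 43 cells, so both were seen in the minority. In the 672 other myeloid cells, IL1B had 372 UMIs, APOBEC3A 99, FCN1 65, EREG 5 and SERPINB2 4. Over the 5 genes a monocyte held 3 to 97 UMIs with a median of 12, and the highest cell held 3.95% of the total. IL1B led in 102 cells, APOBEC3A in 32, FCN1 in 19, SERPINB2 in 4 and EREG in 1, and 8 were tied. Exactly 2 of the genes were seen in 85 cells, 3 in 52, 4 in 23 and all 5 in 6. IL1B with APOBEC3A was the most frequent pair, in 108 cells, and EREG with SERPINB2 the least frequent, in 10.

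Near the limits of the rule, 5 cells were just inside with exactly 3 UMIs (median depth 2175 UMIs), and 9 lay just outside with 2 UMIs over 2 genes (median depth 1632). All 9 of the latter met the myeloid list rule. A further 53 barcodes had 3 or more UMIs but of a single gene, and 8 met the marker rule but held 3 or more C1Q UMIs. No C1Q UMI was seen in 161 of the 166 monocytes, and the 5 others held 1 or 2. When every barcode was thinned at random to 500 UMIs, 51 still met the rule, 50 of them among the 166. The rule therefore depends on depth.

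The name was checked against genes the rule did not use. Among genes that mark classical monocytes, CD14 was seen in 136 of 166 cells (81.9%), VCAN, which encodes the matrix proteoglycan versican, in 138 (83.1%) and LYZ, the antibacterial enzyme lysozyme, in 161 (97.0%). S100A8 was seen in 83 cells and S100A9 in 71 (42.8%), and S100A12, another alarmin, had 4 UMIs in all. FCGR3A, the mark of the non-classical type, was seen in 59 cells (35.5%), and 39 cells held 2 or more UMIs of it. In fibroblast-like cells of the same library (median 1065 UMIs), a gauge of free RNA, CD14 was seen in 1.13%, LYZ in 3.78%, S100A8 in 4.16% and VCAN, which fibroblasts also make, in 14.5%. In endothelial-like cells (median 1110 UMIs) LYZ was seen in 22.2%, CD14 in 2.56% and S100A8 in 4.28%. After thinning every barcode to 500 UMIs, LYZ was seen in 80.7% of the monocytes, VCAN in 47.0%, CD14 in 41.6% and S100A8 in 36.7%. At full depth, LYZ, VCAN and CD14 were thus seen in most of the cells, but S100A8 in 50% and S100A9 in fewer. Of the marks given for thinned cells, only LYZ was seen in most. The cells are called inflammatory monocytes here without the word classical.

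**Figure D1:**
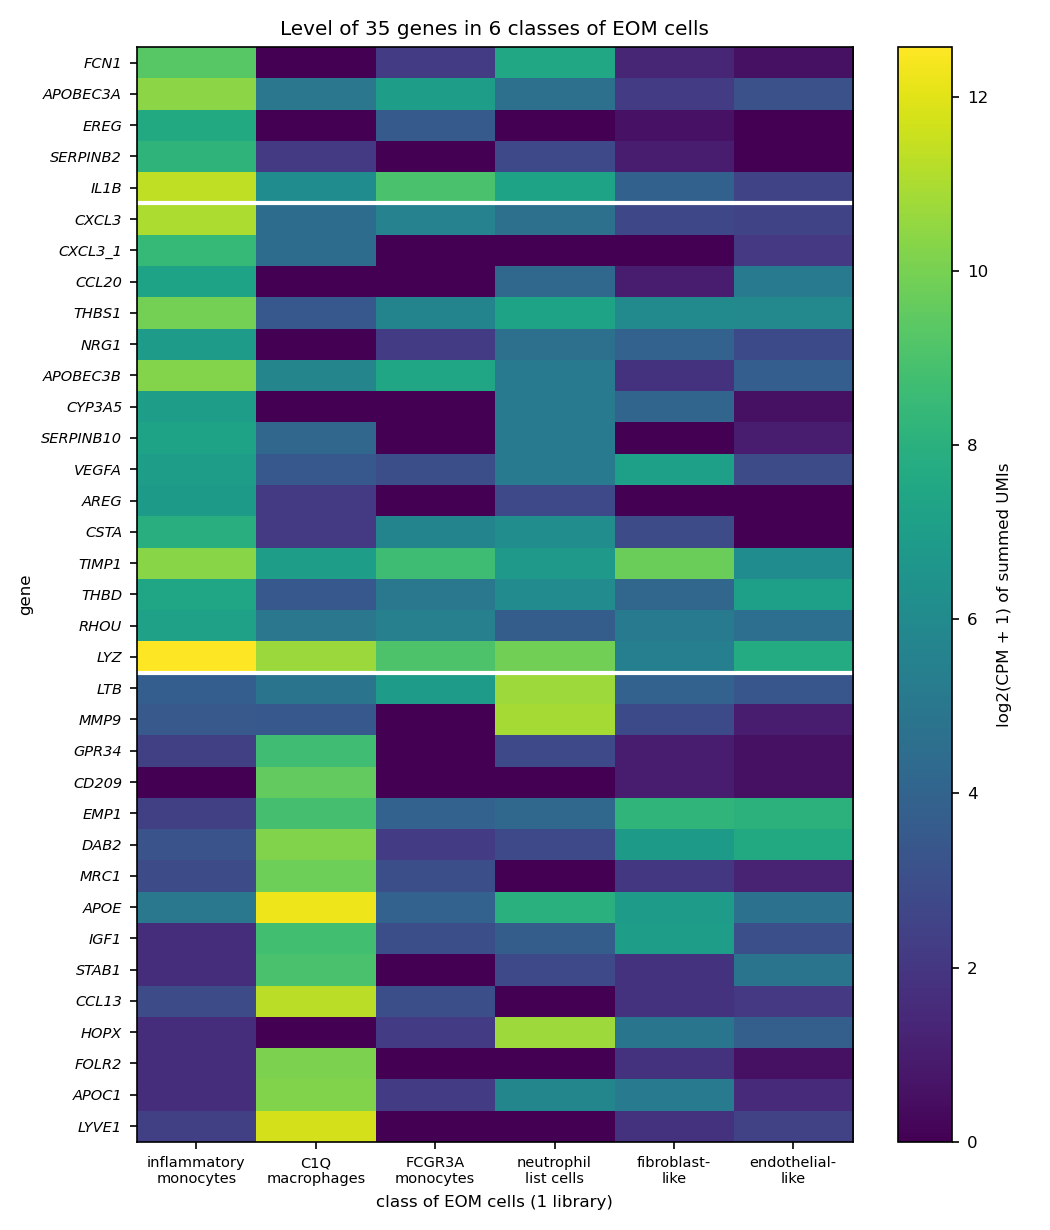
Heat map of log2(CPM + 1) in 6 classes of EOM cells (columns) for the 5 genes that chose the monocytes and, below the white lines, the 15 highest and 15 lowest named genes against all other myeloid cells. LYZ is at 6104 CPM in the monocytes, CXCL3 at 2111 CPM there and at 66.8 CPM or less in the other myeloid classes, while LYVE1 is at 3422 CPM in C1Q macrophages and at 4.19 CPM in the monocytes.

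Summed markers of other lineages were lower than in all other kept cells, but some were not lower than in the other myeloid cells. Satellite cell genes had 0 of 476928 UMIs (0 UMIs for all 6 listed genes), mast cell or basophil genes 1 UMI and platelet genes 3. The B or plasma cell list had 13 UMIs with MS4A1 and CD79A at 0. The T or NK cell list had 62 UMIs with CD3E at 0, but stood at 130 CPM against 78.1 CPM in the other myeloid cells. It was at 927 CPM in all other kept cells, and 4 monocytes held 5 or more of its UMIs. Against the other myeloid cells, mural or smooth muscle genes stood at 409 against 387 CPM. Schwann or glial genes stood at 134 against 107 CPM and endothelial genes at 394 against 717 CPM. Fibroblast genes stood at 665 CPM against 405 CPM in the other myeloid cells and 8181 CPM in all other kept cells, with PDGFRA and DPT at 0. A single monocyte barcode held 40.7% of the UMIs of DCN, a fibroblast proteoglycan. Of the 166 cells, 5 did not meet the myeloid list rule, 4 of them led by the fibroblast list and 1 by the mural list. Scrublet called 5 of the 166 doublets (3.01%, 0.985 to 6.89), against 2.65% of all kept cells and 1.34% of the other myeloid cells. Without the 5 that did not meet the list rule, the DCN ratio against other myeloid cells went from 1.21 to −0.51, so genes of the fibroblast list are not counted as monocyte genes below.

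The main comparison set the monocytes against all other myeloid cells. Against these 672 cells, the monocytes had more RNA for the neutrophil-attracting chemokine CXCL3, the matrix and clotting regulators THBS1, THBD and TIMP1, the growth factors NRG1, AREG and VEGFA, and LYZ. They had less for the scavenger and lipid genes of resident macrophages. The rule itself limits C1Q UMIs, so differences in genes that move with the C1Q genes are a description. Genes with at least 20 counts over both sums were compared, 6971 in number, leaving out those the rules used. At least 2-fold higher were 259 genes (3.72%) and at least 2-fold lower 1129 (16.2%), around a median ratio of −0.22. Scaled by the median ratio, the counts were 428 higher and 841 lower.

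CXCL3 had 1007 UMIs in the monocytes and 42 in the other myeloid cells, 2111 against 41.0 CPM, a ratio of 5.69 (5.24 to 6.17). It was seen in 69 of 166 monocytes (41.6%), with 89 UMIs in the highest, against 2.08% of other myeloid cells, and in 28.9% against 0.744% after thinning. In fibroblast-like cells it was seen in 0.567% and in endothelial-like cells in 0.691%. A second annotated copy, CXCL3_1, had 165 against 7 UMIs, a ratio of 5.66. The CXCL1, CXCL2 and CXCL3 genes are near-copies of one another, and which of them the reads came from is uncertain. APOBEC3B, a near-copy of the rule gene APOBEC3A and uncertain for the same reason, had 573 against 124 UMIs, a ratio of 3.31 (3.03 to 3.60).

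THBS1 encodes thrombospondin-1, a platelet and matrix protein that activates TGF-beta. It had 466 UMIs in 101 monocytes and 75 in the other myeloid cells, 977 against 73.2 CPM, a ratio of 3.74 (3.38 to 4.11). TIMP1, an inhibitor of matrix metalloproteinases, had 622 against 278 UMIs, a ratio of 2.27 (2.06 to 2.47), and was seen in 127 monocytes. Fibroblast-like cells also made TIMP1, at 860 CPM. THBD, thrombomodulin, the receptor that turns thrombin to its anticoagulant role, was 4.65-fold higher and the growth factor gene NRG1 11.5-fold higher.

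LYZ had 2911 against 1626 UMIs, a ratio of 1.94 (1.86 to 2.03). CSTA, the protease inhibitor cystatin A, stood at 2.31 and SERPINB10, another serpin, at 2.69. CYP3A5, a drug-metabolising enzyme of liver and gut, had 60 UMIs in 36 monocytes against 20 in the other myeloid cells, a ratio of 2.69 (1.94 to 3.50). It is shown because it was among the 15 highest genes. RHOU, an atypical small GTPase of the cytoskeleton, stood at 2.21. Against all other kept cells of the library, CXCL3 led with a ratio of 7.65, followed by CXCL3_1 at 7.31, APOBEC3B at 6.03, AREG at 5.79 and SERPINB10 at 5.71.

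**Figure D2:**
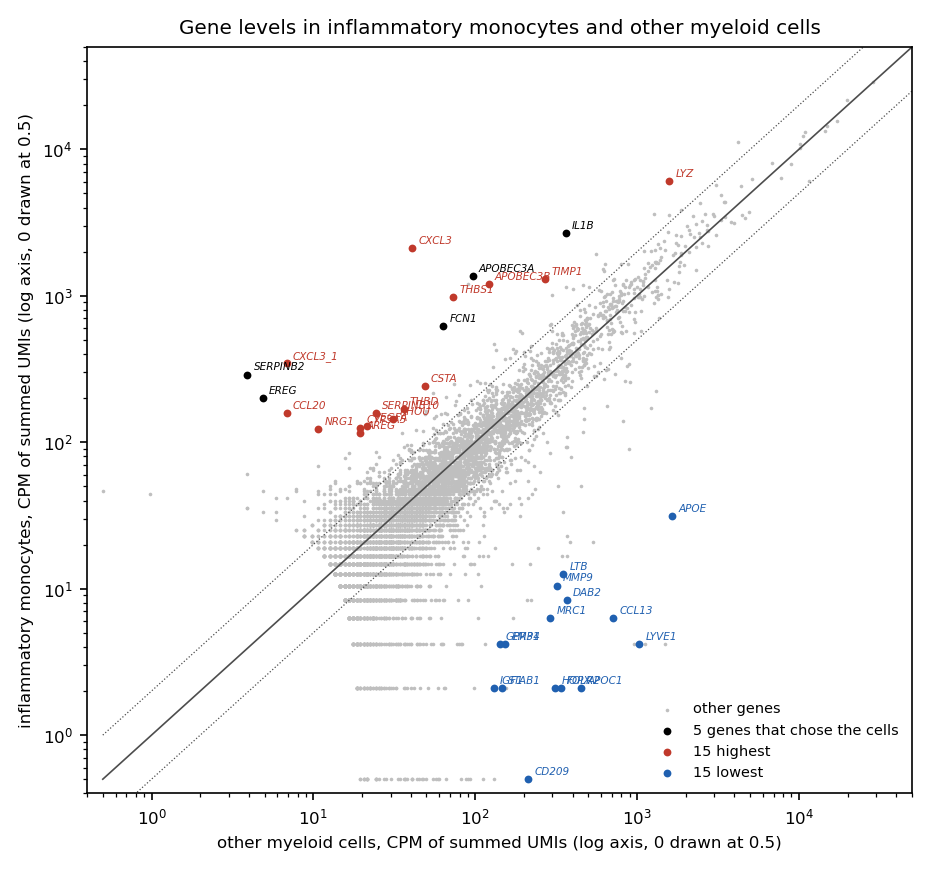
Each point is a gene with at least 20 counts, by its CPM in other myeloid cells (horizontal, log axis) and in inflammatory monocytes (vertical, log axis), with 0 drawn at 0.5; solid line, equal levels; dotted lines, 2-fold. Named are the 5 genes that chose the cells (black), the 15 highest (red, up to CXCL3 at 2111 against 41.0 CPM) and the 15 lowest (blue, down to CD209 at 0 against 213 CPM).

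The lists are given by role, each to be read beside the 3.72% of genes higher and 16.2% lower over all genes. The first holds cytokines. That list had 12 measured genes, and 5 of them were higher by 2-fold or more, 2 lower and 5 within, with a median ratio of 0.71 against −0.22 over all genes. IL1A, the sister of IL1B that acts as an alarm signal from dying cells, had 29 against 4 UMIs, a ratio of 3.96 (2.45 to 5.93), with 31.0% of its UMIs in 1 cell. IL6 and IL23A, which drive acute-phase and Th17 responses, stood at 1.94 (25 UMIs) and 2.00 (26 UMIs). IL10, the main anti-inflammatory cytokine, had 265 against 200 UMIs, a ratio of 1.51 (1.24 to 1.78), but came from 39 cells and 18.9% of it from 1 cell, and stood at 0.85 without IL1B in the rule. The ratio of IL1RN, the natural antagonist of interleukin-1, was −1.04 (22 against 97 UMIs), or −0.10 in thinned cells. TNF differed less, with 63 UMIs in 32 monocytes against 167 UMIs and a ratio of −0.30 (−0.75 to 0.12).

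Chemokines split both ways: 5 of 13 measured were higher, 6 lower and 2 within, with a median of −0.24. CCL20, which attracts CCR6-bearing lymphocytes, had 75 UMIs against 7, a ratio of 4.53 (3.41 to 5.89), all from 10 monocytes. CCL3, a ligand of CCR1, had 1731 UMIs in 129 monocytes against 1312, a ratio of 1.50 (1.40 to 1.61). CXCL8, the main neutrophil attractant, was equal at 2757 against 2763 CPM. Its level was higher in the neutrophil list cells, which were part of that comparison, and lower in FCGR3A monocytes. On the low side stood CCL13 with 3 UMIs against 727 (−6.82, −9.10 to −5.26), CCL2, which calls CCR2-bearing monocytes, with 10 against 544 (−4.66), and CCL8 with 4 against 80 (−3.22). CXCL10, an interferon-induced chemokine, had 35 UMIs in 5 cells and a ratio of −1.04 (−1.62 to −0.51).

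Growth factors and matrix genes of repair were higher for 5 of 11 measured genes and lower for 3. AREG and HBEGF, ligands of the EGF receptor like the rule gene EREG, stood at 2.56 (55 against 20 UMIs, from 14 monocytes) and 1.60 (273 against 194 UMIs, from 101 monocytes). VEGFA, the vessel growth factor, stood at 2.60 (62 against 22 UMIs), and TIMP1 and FN1, the matrix protein fibronectin, were the other genes of the list that were higher (FN1 at 1.18). IGF1, the muscle growth factor made by repair macrophages, had 1 UMI against 133, a ratio of −5.95 (−11.27 to −3.45), and GAS6, a ligand that aids the clearing of dead cells, stood at −1.56, or −0.68 without IL1B in the rule. Over clotting and fibrinolysis, 3 of 11 genes were higher and 2 lower, with a median of 0.73. Beside THBS1 and THBD, PLAUR, the urokinase receptor, stood at 0.74, ANXA2 and S100A10, which together bind plasminogen on the cell surface, at 0.81 and 0.73, and F13A1, the clot-stabilising transglutaminase, at −1.03. The F13A1 call ended in 8 of the other settings, with −0.36 without IL1B in the rule. PLAU, urokinase itself, had 1 UMI against 47, and TFPI2, an inhibitor of clotting proteases, had 21 UMIs in 7 monocytes against 1 (5.50, 2.86 to 10.87).

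Genes for lipid mediators were mostly lower, 9 of 17 against 2 higher, with a median of −1.22. The 2 higher were PTGS2, the inducible cyclooxygenase COX-2, with 545 UMIs in 105 monocytes against 371 (1.66, 1.47 to 1.85), and PTGER2, a prostaglandin E2 receptor, with 78 against 51 (1.72). The PTGS2 ratio came to 0.87 in thinned cells, 0.72 with every cell weighted alike and 0.55 at a mitochondrial limit of 10%. LTC4S, which makes the leukotriene C4, had 4 UMIs against 227 (−4.72), and HPGDS, a prostaglandin D synthase, 0 against 114, at least 17.7-fold lower. ALOX5AP, the helper of 5-lipoxygenase, stood at −1.32 against all other myeloid cells but at −0.04 once the neutrophil list cells were left out of them.

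Among receptors, 4 of 25 measured genes for pattern recognition and Fc receptors were higher and 5 lower, beside 3.72% and 16.2% over all genes. FCAR, the Fc receptor for IgA, had 224 against 134 UMIs (1.84, 1.53 to 2.16), C5AR1, the receptor of the anaphylatoxin C5a, 563 against 477 (1.34) and TLR2, which senses bacterial lipopeptides, 124 against 105 (1.34). In thinned cells FCAR stood at 0.85 and TLR2 at −0.01. CD36, a scavenger receptor, was lower at −1.95, or −0.92 in thinned cells. CCR1, a receptor of CCL3, stood at 1.82 and CXCR4, which holds cells in marrow and tissue, at 1.08 (0.83 in thinned cells), while the integrin subunit gene ITGAX was at −1.47, or −0.42 at a mitochondrial limit of 10%. The whole migration and adhesion list had 7 of 24 higher and 5 lower. The lower counts of both lists were near the share over all genes, and nothing is read from them.

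In the interleukin-1 and inflammasome list, 4 of 14 genes were higher and 2 lower. NLRP3, the sensor that activates caspase-1 to cut pro-interleukin-1 beta, had 120 UMIs in 68 monocytes against 76 (1.76, 1.34 to 2.20), and was seen in 41.0% of monocytes, 7.44% of other myeloid cells and 0.252% of fibroblast-like cells. IL1R2, the decoy receptor of interleukin-1, had 4 UMIs against 93 (−3.44). IL18 (1.15) and IL1RAP (1.10) were also past 2-fold, but their calls ended under other settings. IL18 stood at 0.18 without IL1B in the rule, and IL1RAP at 0.017 in thinned cells. NF-kB is the transcription factor that induces IL1B and the CXCL chemokines, and 5 of 22 of its feedback and target genes were higher, 1 lower and 16 within, with a median of 0.33. These 5 were GPR84 (2.69), TNFAIP3, the inhibitor A20 (1.34), PTX3, a soluble pattern receptor (1.29), TNFAIP2 (1.04) and NFKBIA, the inhibitor I-kappa-B alpha (1.04, 1831 against 1917 UMIs). For 3 of them the call ended under another setting: TNFAIP2 stood at 0.24 and NFKBIA at 0.88 without IL1B in the rule, and TNFAIP3 at 0.88 and NFKBIA at 0.79 at a mitochondrial limit of 10%.

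Immediate-early and heat shock genes, which also mark the stress of taking tissue apart, had 2 of 29 higher, 1 lower and 26 within, with a median of 0.25. FOSL1 stood at 2.34 and FOSL2 at 1.28, both AP-1 subunits, but FOSL1 at 0.94 without IL1B in the rule and FOSL2 at 0.86 in thinned cells. Of 23 interferon-stimulated genes none was higher and 3 were lower, with a median of −0.37, against 3.72% higher and 16.2% lower over all genes, and no difference from all genes is read from these counts. Glycolysis and hypoxia genes had 4 of 24 higher and 2 lower. G0S2, an inhibitor of fat breakdown, had 5372 UMIs in 160 monocytes, 11264 against 4222 CPM (1.42, 1.36 to 1.47), but 0.74 in thinned cells and 0.24 at a mitochondrial limit of 10%. ENO1, a glycolytic enzyme, stood at 1.12, or 0.82 without IL1B in the rule, and the glucose transporter gene SLC2A3 at 1.02, or 0.29 in thinned cells. Antigen presentation had 1 of 15 lower and none higher. Most class II histocompatibility genes have no symbol in the table and were not analysed here.

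Lower genes of the next lists are set beside the 16.2% over all genes. Transcription factors of the myeloid lineage had 3 of 27 higher and 4 lower, the latter near that share. MAF, which maintains resident macrophages, stood at −2.80 and the circadian repressor gene BHLHE41 at −2.20, while BHLHE40, its close relative, stood at 1.04, or 0.66 without IL1B in the rule. Ferritin, iron and oxidative stress genes had 1 of 16 lower, SLC40A1, the iron exporter ferroportin, at −4.36 (8 against 354 UMIs). Lysosome and phagocytosis genes had 3 of 21 lower, also near that share, with CTSD, cathepsin D, at −1.99. Glucocorticoid response genes had 4 of 10 lower, led by VSIG4, a complement receptor of resident macrophages, at −4.45.

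Lists that mark other myeloid types came next. Resident macrophage genes were lower for 23 of 26 measured and higher for none, with a median of −3.19, among them LYVE1 (2 against 1056 UMIs), APOE (15 against 1697) and MRC1 (3 against 298). The monocytes were chosen with under 3 C1Q UMIs and 151 of the comparison cells were C1Q macrophages, so these values are a description. Non-classical monocyte genes were lower for 7 of 14 and higher for none (median −1.17). Dendritic cell genes were lower for 3 of 9 with a median of −0.30, near the −0.22 over all genes. Neutrophil genes had a median of −2.47, but 210 of the 672 comparison cells were picked by that list and held 1959 of its 2356 UMIs there. Without those cells the median was 0.56, so no direction is read from that list. The comparisons that follow take these classes one at a time, and all of them use the same sum over the 166 monocytes.

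The comparison with C1Q macrophages asked what separates these monocytes from the resident-type phagocytes of the same muscle. Both classes were chosen on the C1Q genes and the 5 rule genes, in opposite directions. Differences in genes that move with these are therefore a description. Of 4712 genes, 628 (13.3%) were at least 2-fold higher in monocytes and 742 (15.7%) lower, around a median of −0.03. Resident macrophage genes were lower for 23 of 25 measured and higher for none, with a median of −5.02. LYVE1, a hyaluronan receptor of vessel-lining macrophages, had 2 UMIs in the monocytes and 1005 in the macrophages, a ratio of −9.67 (−12.72 to −7.82). APOC1 (1 against 340), the folate receptor gene FOLR2 (1 against 319) and STAB1, a scavenger receptor (1 against 146), were as scarce. APOE, the lipid carrier, had 15 against 1454 UMIs (−7.30, −8.14 to −6.57) and CD209, a lectin of tissue macrophages, 0 against 217, at least 117-fold lower. MRC1, the mannose receptor, had 3 UMIs against 263.

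Higher in monocytes than in macrophages were 11 of 16 measured classical monocyte genes, against 3 lower, with a median of 2.02. S100A9 had 482 against 1 UMI, a ratio of 8.21 (5.73 to 13.52), and S100A8 had 1489 against 42, 3122 against 143 CPM (4.45, 4.01 to 4.93). VCAN had 916 against 15 (5.23) and CSF3R, the receptor of the neutrophil growth factor G-CSF, 145 against 3 (4.89, 3.32 to 7.19). OSM, oncostatin M, a cytokine that acts on stromal cells, had 199 UMIs in 90 monocytes against 5 (4.62). G0S2 stood at 11264 against 429 CPM (4.71) and PTGS2 at 1143 against 61.3 CPM (4.22). Glycolysis and hypoxia genes were higher for 14 of 20, with a median of 1.29, among them the lactate exporter gene SLC16A3 (65 against 5 UMIs), SLC2A3 (2.56) and ENO1 (1.70). NF-kB feedback and target genes were higher for 11 of 21, led by BCL2A1, a survival factor (3.33), and PTX3 (3.04). Lysosome and phagocytosis genes were lower for 8 of 21 and higher for none, among them the cathepsin genes CTSL (−2.70) and CTSC (−2.11).

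The comparison with FCGR3A monocytes set these cells against myeloid cells outside the rule with at least 2 FCGR3A UMIs. Cells that met the rule could not enter the other class, and 39 of the 166 monocytes also held 2 or more FCGR3A UMIs. Of 4497 genes, 470 (10.5%) were at least 2-fold higher and 663 (14.7%) lower, around a median of −0.19, and 605 higher and 453 lower when scaled by the median ratio. Classical monocyte genes were higher for 13 of 16 and lower for 1, with a median of 3.36. S100A9 had 482 UMIs against 0, at least 93.9-fold higher, and S100A8 had 1489 against 14 (5.96, 5.21 to 6.83). CXCL8 had 1315 against 11 (6.13, 5.28 to 7.13), CXCL3 1007 against 13 (5.50) and CD14 551 against 26 (3.63). F13A1 had 115 against 0, at least 22.4-fold higher.

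CD163, the haemoglobin scavenger receptor, is a gene shared with C1Q macrophages. It stood at 438 CPM in the inflammatory monocytes, 681 CPM in C1Q macrophages and 14.3 CPM in FCGR3A monocytes. Receptors for patterns and Fc parts were higher than in FCGR3A monocytes for 13 of 18 genes and lower for none, with a median of 2.31, among them FCGR2B (3.94), TLR2 (3.18) and FCAR (3.03). TREM1, which amplifies the response to bacteria, had 60 UMIs against 0, at least 11.7-fold higher. Clotting and fibrinolysis genes were higher for 7 of 9, with THBS1 at 4.28 and PLAUR at 4.45, and PTGS2 stood at 3.99.

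Non-classical genes were lower for 11 of 11 measured, with a median of −2.02. The cell cycle inhibitor gene CDKN1C had 16 against 264 UMIs (−4.82, −5.65 to −4.09), the transcription factor gene TCF7L2 26 against 141 (−3.21), MS4A7 67 against 330 (−3.08) and CX3CR1, the fractalkine receptor that keeps patrolling monocytes alive, 17 against 48 (−2.27). FCGR3A was used to choose the other class and is not counted. Differences in genes that move with FCGR3A are therefore a description. LTA4H, which makes leukotriene B4, stood at −3.10 and CTSD at −3.09. IL1B itself had 141 UMIs in 49 of the 148 FCGR3A monocytes (506 CPM), so its RNA was not confined to the cells chosen.

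**Figure D3:**
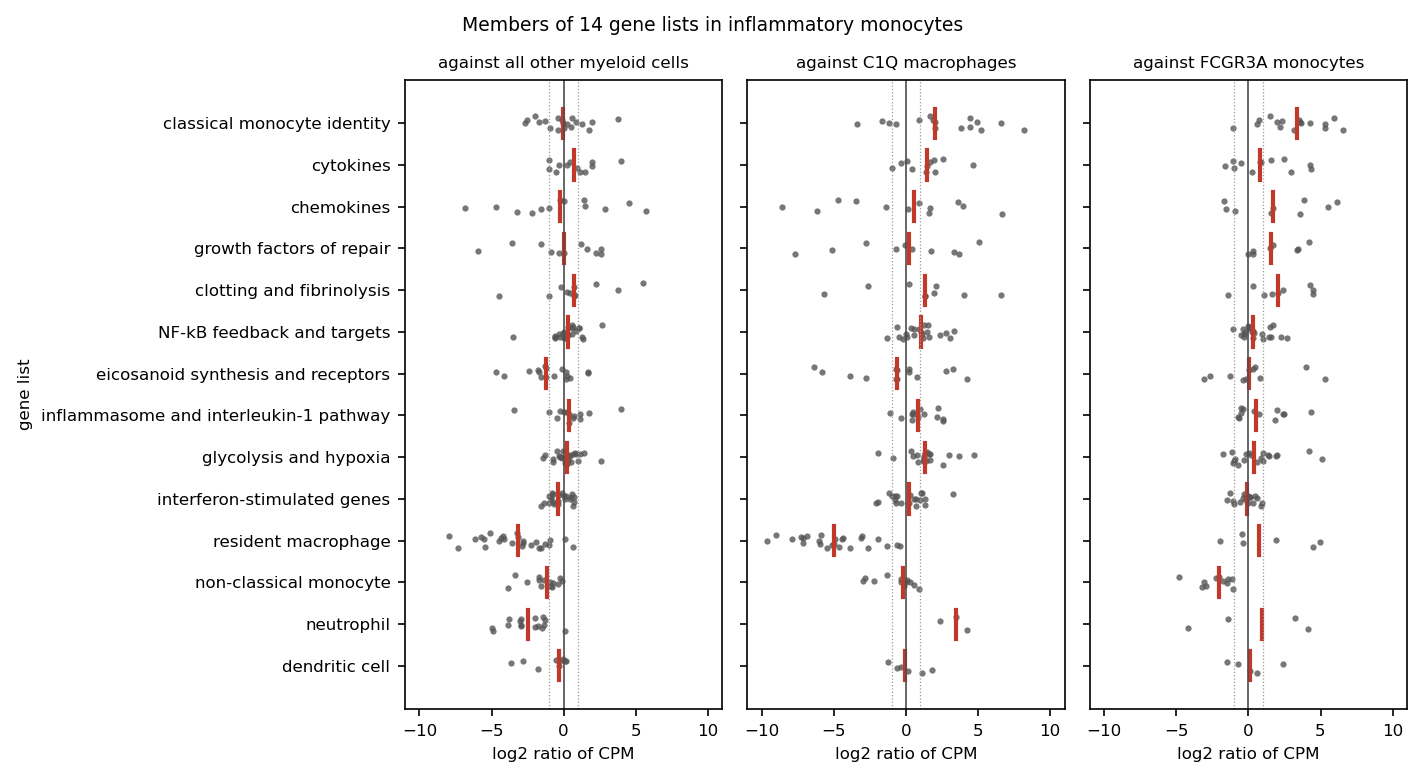
Log2 ratios of the measured members (points) of 14 gene lists in inflammatory monocytes against 3 classes, with the list median in red and dotted lines at 2-fold. Resident macrophage genes lie to the left against C1Q macrophages (median −5.02) and classical monocyte genes to the right against FCGR3A monocytes (median 3.36), while against all other myeloid cells the classical list has a median of −0.02.

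The classical list had a median of −0.02 against all other myeloid cells (4 of 19 higher, 5 lower), and neutrophil list cells were part of that comparison. S100A8 had 3757 UMIs in those 210 cells, 22393 CPM, against 3122 CPM in the inflammatory monocytes, 143 in C1Q macrophages and 50.2 in FCGR3A monocytes. Against the neutrophil list cells, the classical list was lower for 11 of 17 genes with a median of −1.95, S100A9 at −2.90 and CSF3R at −3.22. Of 3971 genes in that comparison, 1005 (25.3%) were at least 2-fold higher in monocytes and 864 (21.8%) lower. The monocytes had more CXCL3 (1007 against 4 UMIs, 6.47), CCL3 (3630 against 316 CPM, 3.52), TIMP1 (3.60), KYNU, an enzyme of tryptophan breakdown (93 against 1, 5.03, 2.52 to 10.35), and IL10 (3.73). Lower were CD177 (1 against 89), ALPL, alkaline phosphatase (1 against 58), LTB, lymphotoxin beta (6 against 281, −7.06), CHIT1, chitotriosidase (−6.24), and ORM1, an acute-phase protein (0 against 128, at least 121-fold lower). CXCL8 was also lower, at 2757 against 10633 CPM (−1.95). The low mitochondrial share and depth of the neutrophil list cells move with these differences, and their part in them was not tested.

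The inflammatory monocytes were not uniform. EREG or SERPINB2 was seen in 73 cells (44.0%) and neither in 93, with medians of 2905 and 2737 UMIs. Of 3024 genes, 168 were at least 2-fold higher in the former and 147 lower, as a description, because rule genes formed both groups. S100A8 had 1241 UMIs in the 73 cells and 248 in the 93, 5797 against 943 CPM (2.62, 2.42 to 2.82), and was seen in 68.5% against 35.5%. S100A9 (1.89), CXCL8 (1.87), CXCL3 (1.67), PLAUR (1.55), THBS1 (1.34), FCN1 (1.27) and PTGS2 (1.13) were higher with it. CYP3A5 had 49 against 11 UMIs (2.45), and CCL20 65 against 10. On the low side were ITGAX (−2.46), MS4A7 (−2.05), FCGR3A (−1.30) and the guanylate-binding protein gene GBP1 (−1.24), and CXCL10 had 0 against 35 UMIs. A split into the deeper and shallower 83 cells (medians 3260 and 2392 UMIs) gave 161 higher and 99 lower genes, with S100A8 at −0.20, CXCL8 at 0.26, THBS1 at 0.10 and FCGR3A at −0.16. Other genes of the EREG or SERPINB2 split moved with depth too: CXCL10 had 34 UMIs in the deeper cells against 1 (4.50, 1.92 to 9.84), CCL20 stood at 1.66, CXCL3 at 0.98 and ITGAX at −1.66. EREG (1.06) and SERPINB2 (1.08) themselves were higher in the deeper cells.

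Another division was found after the data were seen. It set 118 cells with FCN1, EREG or SERPINB2 against 48 that met the rule by APOBEC3A and IL1B only (medians 2844 and 2712 UMIs). Of 3024 genes, 291 were at least 2-fold higher in the 118 and 171 lower. Rule genes formed both groups here too, so the values are a description. S100A8 had 1475 UMIs in the 118 and 14 in the 48, 4277 against 106 CPM (5.33, 4.58 to 6.21). S100A9 had 471 against 11 (4.04, 3.18 to 5.05), TREM1 57 against 3 (2.86, 1.24 to 5.18) and CXCL8 1234 against 81 (2.54). LYZ stood at 7282 against 3028 CPM (1.27) and CYP3A5 at 59 against 1 UMI (4.50, 1.96 to 9.83). FCGR3A ran the other way, with 59 UMIs in the 118 cells and 98 in the 48, 171 against 742 CPM (−2.12, −2.61 to −1.64). It was seen in 25 of 118 cells (21.2%) and 34 of 48 (70.8%). ITGAX (−3.76), PLD4, an endosomal nuclease high in FCGR3A monocytes (−2.68), TCF7L2 (−1.61) and MS4A7 (−1.43) were lower in the 118 as well.

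The 48 cells were unlike FCGR3A monocytes in other genes. CD14 was seen in 36 of the 48 (75.0%) and in 14 of 148 FCGR3A monocytes (9.46%), VCAN in 37 (77.1%) and in 25 (16.9%), and LYZ in 46 (95.8%) and in 52 (35.1%). CD14 differed little between the 118 and the 48, at 1218 against 992 CPM (0.30, 0.01 to 0.59). CCL3 was higher in the 48, at 5579 against 2883 CPM (−0.95). S100A8 or S100A9 was seen in 89 of all 166 monocytes, FCGR3A at 2 or more UMIs in 39, and both in 4. Leiden clustering of the whole library put 151 of the 166 in 1 cluster of 201 cells, with 110 of the 118 and 41 of the 48 there. That cluster also held 48 of the other myeloid cells. The cluster that held 138 of the 148 FCGR3A monocytes took 2 of the 118 and 6 of the 48. The rule genes and FCGR3A were not removed before clustering, so it is a description and no independent check of these groups.

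**Figure D4:**
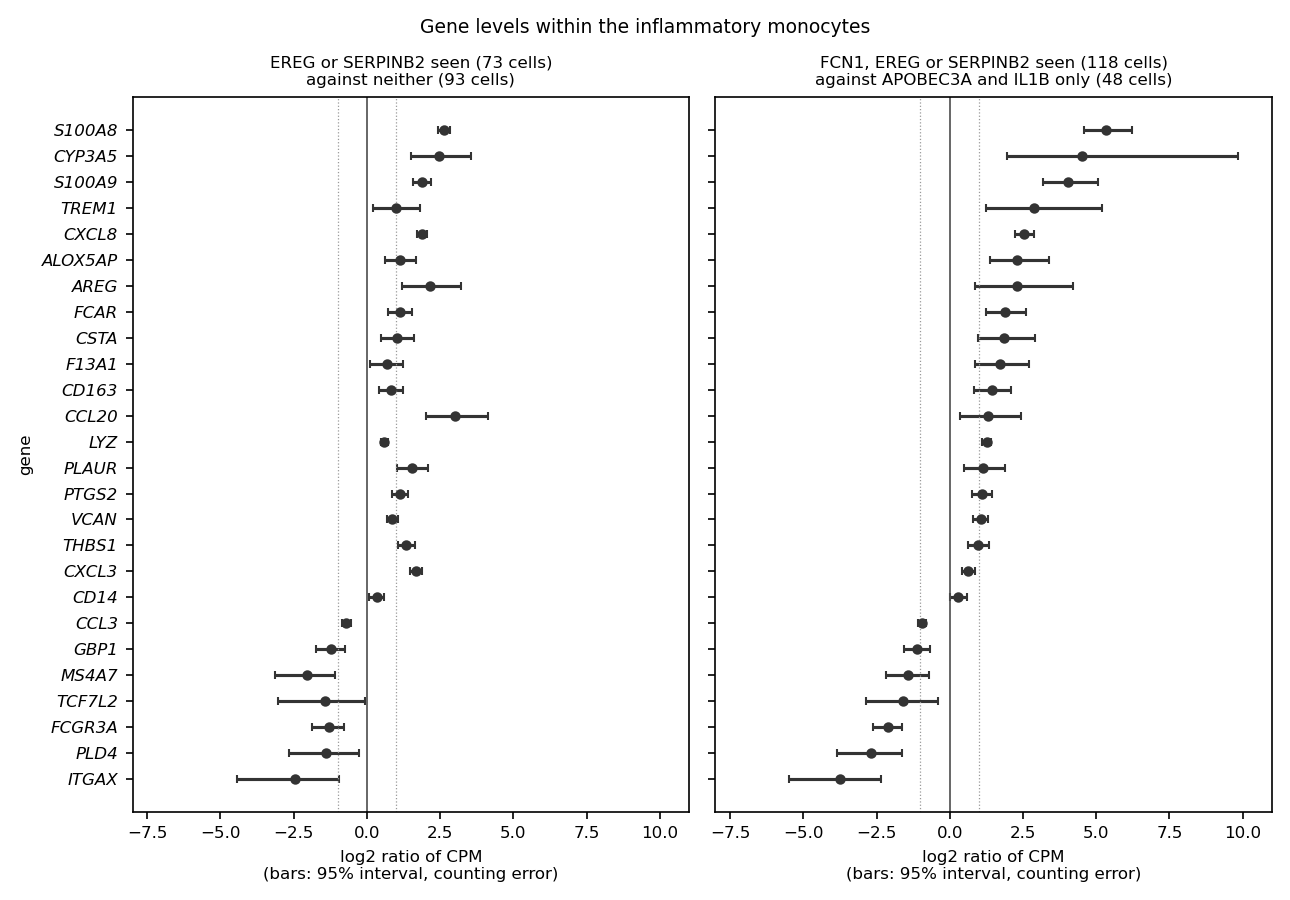
Log2 ratio of CPM, with its 95% interval for counting error, for 26 genes (rows) between groups of the 166 inflammatory monocytes formed by rule genes: EREG or SERPINB2 seen against neither (left) and FCN1, EREG or SERPINB2 seen against APOBEC3A and IL1B only (right). S100A8 lies at 2.62 and 5.33, FCGR3A at −1.30 and −2.12, and CD14 at 0.33 and 0.30.

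Almost no nucleus met the marker rule, which ran there without APOBEC3A and C1QB. With a mitochondrial limit of 10%, it was met by 0 of 16473 EOM nuclei, which allows a share of up to 0.0224% (Clopper-Pearson), and by 1 of 12391 QFM nuclei. APOBEC3A and C1QB have no symbol in the nuclei tables, so the rule ran there on fewer genes. IL1B had 7 UMIs in all EOM nuclei and 7 in all QFM nuclei, and FCN1 14 and 31, against 1728 and 375 in all EOM cells. Nuclei and whole cells differ in preparation and in the RNA they hold, so no ratio between them was taken. The cell library shared no barcode with the nuclei libraries, and the nuclei libraries shared 51 with each other.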

How the data were processed

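Gene counts per barcode, as deposited by the authors for 1 library of EOM cells, 1 of EOM nuclei and 1 of QFM nuclei, were used without further normalisation. Per the submitters' processing notes, Cell Ranger 7.2.0 and Seurat 5.2.1 were used (genome build and barcode filters: not given in the sources used here). In the EOM cell table there were 33368 features. Of these, 723 labelled only by an NCBI identifier were given their RefSeq symbol, and 18136 had a gene symbol after that step. Barcodes over 20% mitochondrial UMIs (10% in nuclei) were left out. Counts were summed over the cells of each class and given as CPM with exact Poisson intervals, and ratios with conditional exact binomial intervals. These intervals cover counting error only, and with 1 library per group no test was made. A gene needed 20 counts over both sums, and 2-fold was the limit for calling it higher or lower; 0 counts was taken as 3 counts for a lower bound. Named were, per comparison, the 15 highest and 15 lowest genes of at least 100 CPM in the higher class, and up to 6 genes of each list of at least 50 CPM. Outside that rule, TFPI2 and genes carried from one comparison into another were chosen after their values were seen. Shares of cells with a UMI were also taken with every barcode thinned to 500 UMIs. Doublets were called with Scrublet in scanpy 1.11.5 at an expected rate of 6% and kept, and cells were clustered by the Leiden method (igraph 0.11.9). Python 3.11.15, numpy 2.4.6, scipy 1.17.1 and pandas 2.3.3 were used, and the summing and calling steps were tested on simulated data. The cells, the gene lists and the classes were chosen with earlier results of these data known. Promoter sequences were not analysed here. Values of some single genes are not reported here.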

Additional observations from a re-analysis of the deposited data

How the results depend on the processing

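Of 124 values on cell numbers and gene counts recomputed under an alternative, 82 stayed within 1.5 times and 42 did not; the cause was not tested beyond what each alternative's own construction shows (fewer cells, fewer genes or fewer UMIs). The number of cells went from 166 to 82 without IL1B in the rule, 36 at a mitochondrial limit of 10% and 51 for the rule on thinned cells, the last added after the data were seen. Higher and lower genes are given in that order. Against other myeloid cells there were 453 and 1853 with 10 counts as the minimum, 108 and 434 with 50, and 4362 and 2259 with 1; 428 were higher under median ratio scaling, and 659 lower at the 10% mitochondrial limit and 680 after thinning. Against C1Q macrophages there were 965 and 1416 with 10 counts, 328 and 241 with 50, 1264 and 4488 with 1, 340 and 207 at the 10% limit, and 210 and 175 after thinning. Against FCGR3A monocytes the numbers were 800 and 1182, 216 and 218, 1207 and 4162, 213 and 169, and 148 and 188 in the same order. Against neutrophil list cells, a comparison added after the data were seen, there were 1354 lower with 10 counts, 470 and 378 with 50, 1701 and 5850 with 1, 445 and 575 at the 10% limit, 362 and 507 after thinning, and 511 higher without IL1B in the rule.

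The fibroblast list reversed its median of 1.10 to −0.68 in cells that met the myeloid list rule, −3.20 at the 10% limit, −0.63 without called doublets, −0.046 with 50 counts, −0.99 after thinning and −0.38 with other myeloid cells taken from clusters. DCN reversed to −0.51, −0.66, −0.51 and −0.38 in cells that met the list rule, at the 10% limit, without doublets and with clusters. TLR2 reversed to −0.012 after thinning and CCL5 to −0.29 with clusters. Without neutrophil list cells, the neutrophil list reversed to 0.56, PI16 to 0.50 and TNFRSF10C to 1.75. Of 96 named genes at least 2-fold apart from other myeloid cells, 16 were no longer so at the 10% limit, 13 after thinning, 13 without IL1B in the rule, 10 without neutrophil list cells and 9 with every cell weighted alike. No paired analysis was possible because each group is 1 library.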
